A study of Mus musculus with 2 samples.

Results

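Dendritic cells take up, process and present antigen to T cells, and the mouse spleen holds several kinds of them. Conventional dendritic cells of the first type (cDC1, CD8a-type) carry the CD8 alpha chain on their surface, depend on the transcription factor Batf3 and are known for presenting antigen of dying cells to CD8+ T cells. Those of the second type (cDC2) include the CD4-type cells of the spleen, which carry CD4, while plasmacytoid dendritic cells depend on the transcription factor Tcf4 (E2-2) and are known for making type I interferon. A set of 35 genes known as markers of these kinds was read on arrays of sorted T cells: 11 of the CD8a-type, 6 of the CD4-type, 2 shared by conventional dendritic cells (Itgax and Flt3) and 16 of plasmacytoid cells. Of these, 32 genes had named probes, 46 probes in all, out of 17176 genes and 24840 named probes on the array. Clec9a, Ly75 and Clec4a4 had no named probe, so no signal is given for them.

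The samples were splenocytes from wild-type C57B6 mice, separated by cell sorting into helper T cells, which carry CD4, and CD8-bearing cytotoxic T cells. The labels name no treatment, and they give neither the number and age of the mice nor the antibodies of the sort. Total RNA of each population was labelled with the dye Cy3 and hybridised to 1 Agilent one-colour array, and both arrays lay on 1 slide. With 1 array per cell type there was no replicate, so no test between the populations was possible and all differences describe these 2 arrays. The study set the profile of one population beside that of the other. The genes were chosen by what is known of these cells together with the signal and detection values of these same arrays, CD8+ against CD4+, so the values below are a description and support nothing by themselves.

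The labelled cell types were checked on their own markers. Cd8a, the CD8 alpha chain gene, had signals (processed intensity) of 534.7 on the CD4+ array against 49982 on the CD8+ array, 105.6-fold higher there. Cd4 had 307.0 and 66.0, 4.12-fold higher on the CD4+ array (2.58-fold with normexp, another background correction). On the CD4+ array the Cd4 signal was below that array's 75th percentile and below the Cd8a signal, so the check of this sample was weak. All 12 genes of a T cell list were well above background on both arrays, with a median log2 difference of 0.08 and a summed level of 725.4 on the CD4+ and 730.8 on the CD8+ array. Of the 12, 2 were at least 2-fold higher on the CD4+ array, Trat1, an adaptor of the T cell receptor complex, by 5.47-fold (signals of 5317 and 859.5), and Cd28, a costimulatory receptor, by 2.09-fold. Cd5, an inhibitory receptor of T cells, was 1.79-fold higher there. A summed level here is the sum, over the genes of a list, of the signal divided by the array's 75th percentile signal, which was 508.4 and 449.9 for the CD4+ and CD8+ arrays. Of all non-control spots, 63.1% and 58.6% were well above background on the CD4+ and CD8+ arrays. The technical spread of a log2 difference was an SD of 0.17 between spots of 1 probe (154 probes) and of 0.24 between probes of 1 gene (3972 genes).

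The promoter sequences of the members furthest apart are given first, because they name the DNA from which the transcripts in question start. Of the 32 genes, those at least 5-fold apart whose promoter is in the RefSeq table used here (build GRCm38.p6) were Cd207, Ifi205, Cd209a, Siglech and Upb1. Each line holds the 250 bases before the annotated transcript start, from 5′ to 3′ on the gene's own strand, and capitals mark matches to the motifs described after the sequences. Cd207 (chr6:83677858-83678107, minus strand) and Ifi205 (chr1:174031756-174032005, minus strand) were higher on the CD8+ array. Cd209a (chr8:3748985-3749234, minus strand), Siglech (chr7:55767934-55768183, plus strand) and Upb1 (chr10:75406661-75406910, plus strand) were higher on the CD4+ array.
Cd207: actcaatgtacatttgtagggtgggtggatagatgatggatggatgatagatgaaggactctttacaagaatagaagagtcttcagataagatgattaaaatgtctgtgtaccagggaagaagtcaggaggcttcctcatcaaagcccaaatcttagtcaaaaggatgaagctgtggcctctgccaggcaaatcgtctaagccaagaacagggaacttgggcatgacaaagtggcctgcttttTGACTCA
Ifi205: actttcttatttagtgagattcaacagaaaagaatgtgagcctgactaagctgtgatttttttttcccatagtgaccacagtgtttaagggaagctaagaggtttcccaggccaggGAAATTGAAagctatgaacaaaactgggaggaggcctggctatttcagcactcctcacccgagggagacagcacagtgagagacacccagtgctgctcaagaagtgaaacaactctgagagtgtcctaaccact
Cd209a: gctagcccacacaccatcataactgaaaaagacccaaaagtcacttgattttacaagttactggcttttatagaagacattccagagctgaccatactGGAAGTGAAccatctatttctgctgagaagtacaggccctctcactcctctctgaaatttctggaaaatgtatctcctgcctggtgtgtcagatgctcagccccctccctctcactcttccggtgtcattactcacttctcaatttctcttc
Siglech: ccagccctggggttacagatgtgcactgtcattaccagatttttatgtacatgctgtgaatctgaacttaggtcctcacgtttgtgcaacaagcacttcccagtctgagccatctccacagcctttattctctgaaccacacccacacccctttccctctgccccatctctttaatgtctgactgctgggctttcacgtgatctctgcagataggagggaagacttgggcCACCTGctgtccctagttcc
Upb1: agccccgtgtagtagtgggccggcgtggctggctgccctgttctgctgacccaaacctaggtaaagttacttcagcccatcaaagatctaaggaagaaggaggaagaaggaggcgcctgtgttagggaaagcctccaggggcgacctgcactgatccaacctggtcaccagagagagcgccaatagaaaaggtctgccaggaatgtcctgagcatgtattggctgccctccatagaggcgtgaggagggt
The motifs searched, on both strands, were GAGGAAGT (PU.1), GAAANNGAA (a shortened element of IRF proteins), GGAANNGAA (a shortened element of PU.1 with an IRF protein, which can overlap either of the former), TGACTCA (AP-1, the family of Batf3), and CAGCTG and CAGGTG (E-boxes, bound by E proteins such as Tcf4). Of all 32851 windows of this length, 2.44%, 7.13%, 6.99%, 4.46%, 13.0% and 17.2% hold these motifs, in the same order. Of the 25 members with a window, 0, 1, 2, 2, 2 and 2 held them, again in the same order. These 25 include Clec9a and Ly75, which have no named probe. Member windows on 1 chromosome were left out of the search, while the count over all windows kept that chromosome. TGACTCA lay 7 bases before the start of Cd207 and, on the other strand, 56 bases before that of Itgax. GAAANNGAA lay 134 bases before the start of Ifi205, GGAANNGAA lay 152 bases before that of Cd209a and 159 bases before that of Bcl11a, and CAGGTG lay 20 bases before that of Siglech on the other strand and 150 bases before that of Hepacam2. CAGCTG lay 31 bases before the start of Hepacam2 and 88 bases before that of Cst3. The window of Upb1 held no match to these letters, and a match or its lack is a description of the window, with no binding measured here.

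Across the members, CD8a-type genes leaned to the CD8+ array and CD4-type, shared and plasmacytoid genes to the CD4+ array. Of the 32 genes, 30 were well above background on both arrays, and 2, Ccl17 and Runx2, on the CD4+ array alone. Among the 30, 4 were at least 2-fold higher on the CD8+ array, all of the CD8a-type (Cd207, Ifi205, Hepacam2 and Naaa), where 1.94% of the 11957 genes measured on both arrays were. At least 2-fold higher on the CD4+ array were 8, Cd209a and Clec10a of the CD4-type, Itgax of the shared genes, and Upb1, Siglech, Hs3st1, Tcf4 and Lefty1 of the plasmacytoid genes, where 3.83% of all genes were. The remaining 18 lay within 2-fold. With each array scaled to its median signal, which moved the median of all genes by 0.14, the counts were 5 and 6 (with Cst3 added on the CD8+ side, and Tcf4 and Lefty1 under 2-fold), and all genes gave 320 and 366 in place of 232 and 458. In RNA of sorted populations, fewer cells of a type, less RNA per cell and transcripts of the sorted T cells themselves cannot be told apart.

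**Figure D1:**
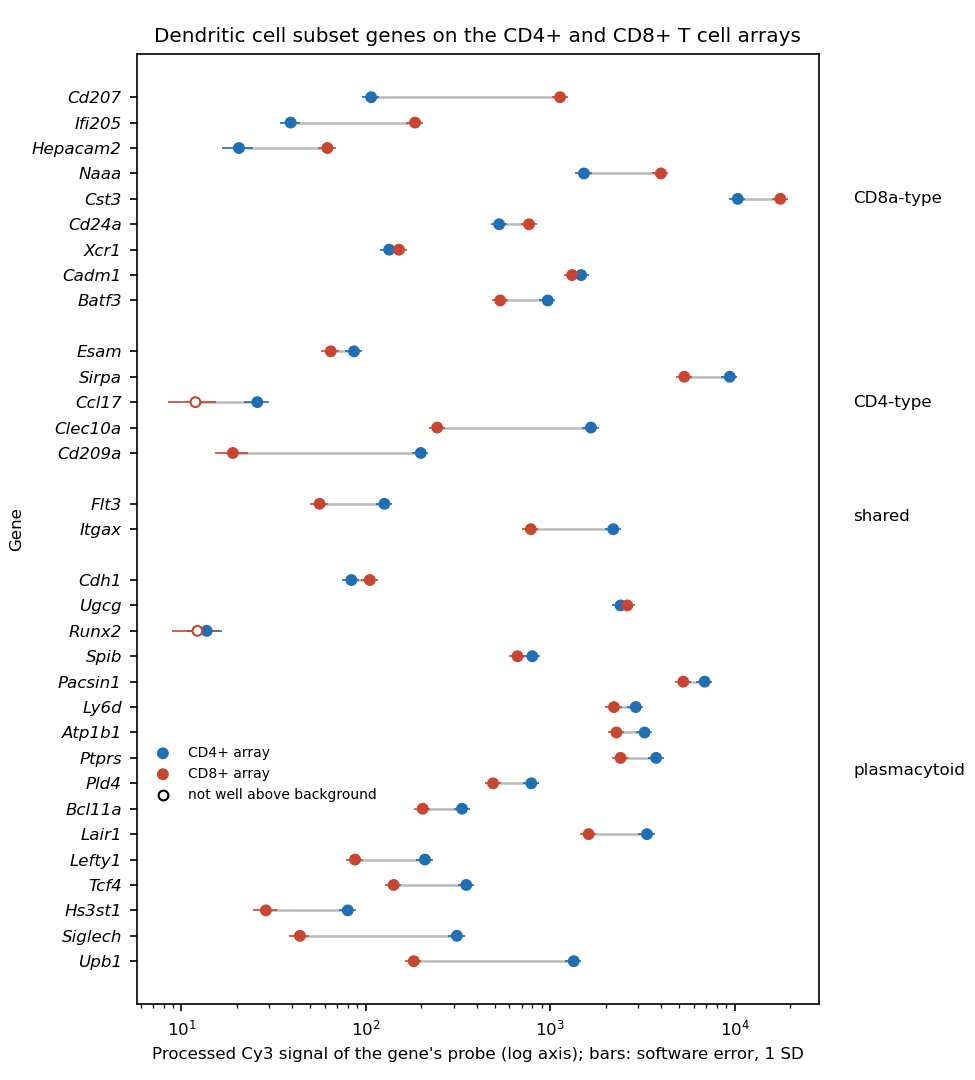
Processed Cy3 signal (log axis, not scaled between the arrays) of the probe used for each of 32 dendritic cell subset genes, with blue points for the CD4+ array, red points for the CD8+ array and bars for the scanner software's error of 1 SD. Cd207 runs from 106.9 to 1132 in favour of the CD8+ array and Upb1 from 1342 to 182.0 in favour of the CD4+ array, and open points (Ccl17 and Runx2) are not well above background.

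Among the CD8a-type genes, Cd207, which encodes langerin, an endocytic C-type lectin, had a signal of 106.9 ± 11.2 (software error, 1 SD) on the CD4+ array against 1132 ± 113.2 on the CD8+ array. Relative to each array's 75th percentile this was a log2 level of -2.25 and 1.33, a difference of 3.58 or 12.0-fold (7.60-fold with normexp background correction). By size of the difference in favour of the CD8+ array, Cd207 ranked 7 of 11957 genes. Ifi205, an interferon-inducible gene of the p200 family, had 39.1 ± 5.06 on the CD4+ array against 184.9 ± 18.8 on the CD8+ array, a difference of 2.42 or 5.34-fold (2.73-fold with normexp). Its relatives in the p200 family are similar in sequence, so which of them its probe read is uncertain. Hepacam2, an adhesion protein gene of the immunoglobulin superfamily, was dim on both arrays, at 20.5 ± 3.86 and 61.9 ± 7.04, a difference of 1.77 or 3.41-fold that was 1.64-fold with normexp. Naaa, a lysosomal amidase that breaks down N-acylethanolamines, was bright, at 1524 ± 152.4 and 3984 ± 398.4, 2.95-fold higher on the CD8+ array and 2.52-fold with normexp.

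The other CD8a-type genes differed less. Cst3, the protease inhibitor cystatin C, had signals of 10412 on the CD4+ array against 17722 on the CD8+ array, a difference of 0.94 or 1.92-fold. Cd24a, a surface glycoprotein also known in B cells, had 528.6 and 767.6, a difference of 0.71. Cadm1, an adhesion molecule, had a difference of 0.01 by its brightest probe and of -0.29 and 0.28 by the other two. Batf3, the transcription factor on which the CD8a-type cells depend, went the other way, at 970.0 on the CD4+ array against 536.0 on the CD8+ array, 1.60-fold higher on the CD4+ array. Of the 9 genes, 8 had a positive difference, Cadm1 by less than the probe-to-probe SD of 0.24. The median of the 9 was 0.94, against 0.02 for all 11957 genes.

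Xcr1, the receptor for the chemokine XCL1 and a defining receptor of this kind of cell, gave discordant probes. By the brighter probe it had a signal of 133.8 on the CD4+ and 151.2 on the CD8+ array, a difference of 0.35. By the dimmer probe it had 20.8 and 150.6, a difference of 3.03 or 8.18-fold. The CD4+ spot of that probe was near its background, with a median pixel of 57.0 against a local background of 49.0. The size of this fold was therefore poorly fixed. Both probes are assigned to the same transcript, they nearly coincided on the CD8+ array, and they parted on the CD4+ array. Xcr1 was counted as within 2-fold because the gene takes its brighter probe. With the mean over probes, which takes in that dim spot, Xcr1 had a difference of 1.69 and the median of the CD8a-type genes was 1.56.

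**Figure D2:**
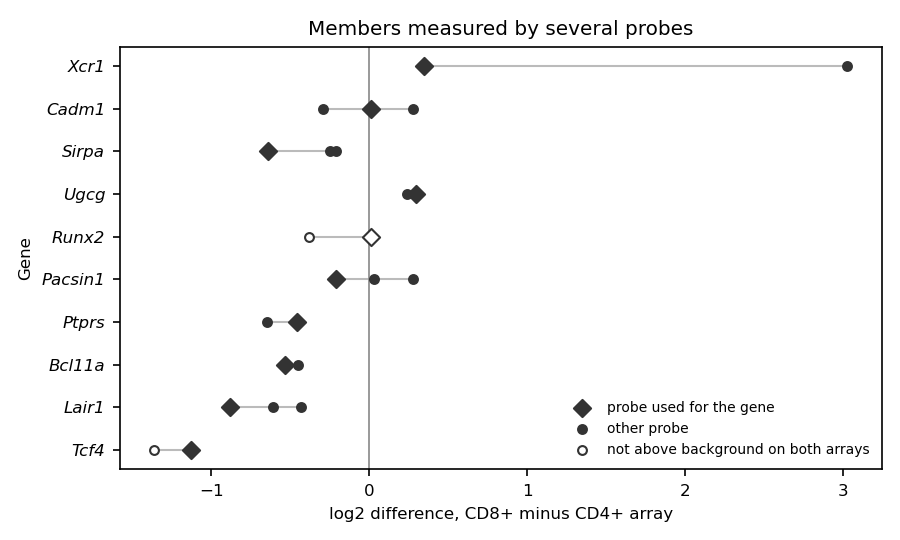
Log2 difference between the CD8+ and CD4+ arrays for each probe of the 10 genes with several probes; diamonds mark the probe used for the gene and open symbols probes not well above background on both arrays. The probes of Xcr1 stand at 0.35 and 3.03, while the probes of Tcf4, Lair1, Bcl11a, Ptprs and Sirpa all lie below 0.

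Among the CD4-type genes, Cd209a, a C-type lectin related to DC-SIGN, had 198.6 ± 20.1 on the CD4+ array against 19.0 ± 3.86 on the CD8+ array, a difference of -3.21 or 9.25-fold. The CD8+ spot of Cd209a was near its background, with a median pixel of 58.0 against a local background of 53.5, so the size of the fold was poorly fixed. It was 2.55-fold with normexp and 3.38-fold with the authors' series values. Clec10a, the galactose-type lectin MGL1, was bright on the CD4+ array, at 1663 ± 166.3 against 243.9 ± 24.6, a difference of -2.59 or 6.03-fold, and 5.39-fold with normexp. Its close relative Mgl2, which a further list holds, had 32.5 and 18.9, and the similarity of these genes leaves some doubt over what each probe read.

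The other genes of this kind differed less. Sirpa, the inhibitory receptor that binds CD47, had 9428 and 5342 by its brightest probe, a difference of -0.64, and -0.21 and -0.25 by the other two. Esam, an adhesion molecule of endothelial cells and of the CD4-type cells, had 86.3 and 64.5, a difference of -0.24 that turned to 0.10 with normexp. Ccl17, a chemokine for CCR4, had 25.8 ± 4.07 on the CD4+ array against 11.9 ± 3.50 on the CD8+ array, where it was not well above background. It was therefore at least 1.55-fold higher on the CD4+ array, a bound computed against the lowest signal that counted as well above background on the CD8+ array (14.7), but the difference was 1.02-fold with normexp. The median of the 4 genes measured on both arrays was -1.62.

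The shared genes were both higher on the CD4+ array. Itgax, the integrin chain CD11c, had 2198 ± 219.8 and 785.0 ± 78.6, a difference of -1.31 or 2.48-fold. Flt3, the receptor of the cytokine on which dendritic cells depend, had 126.1 ± 12.9 and 56.1 ± 6.39, a difference of -0.99 or 1.99-fold, and 1.48-fold with normexp.

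Among the plasmacytoid genes, Upb1, an enzyme of pyrimidine breakdown, had 1342 ± 134.2 on the CD4+ array against 182.0 ± 18.4 on the CD8+ array, a difference of -2.71 or 6.52-fold (5.39-fold with normexp). Siglech, a sialic acid-binding lectin and a defining receptor of plasmacytoid cells, had 311.8 ± 31.3 and 43.9 ± 5.42, a difference of -2.65 or 6.28-fold (3.26-fold with normexp). Both stood well above background on the CD8+ array too, where their signal was low. The adaptor DAP12, through which Siglec-H signals, is encoded by Tyrobp, which had 10166 and 3997, 2.25-fold higher on the CD4+ array, and NK and myeloid cells also use it.

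The transcription factors of plasmacytoid cells differed less than their surface receptor. Tcf4, on which these cells depend, had 350.5 ± 35.2 and 141.5 ± 14.5, a difference of -1.13 or 2.19-fold (1.93-fold with normexp), and its dimmer probe passed background in the CD4+ sample alone. Bcl11a, a zinc finger factor also known in B cells, had 332.5 and 203.5, a difference of -0.53, and -0.45 by its other probe. Spib, an ETS factor that B cells express as well, had 800.6 and 664.9, a difference of -0.09 that was 0.05 with scaling to the median. Runx2 was at the edge of detection, at 13.7 on the CD4+ array against 12.2 on the CD8+ array, and no fold is given for it.

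Of the remaining plasmacytoid genes, Hs3st1, a heparan sulfate sulfotransferase, had 79.8 ± 8.40 and 28.7 ± 4.27, a difference of -1.30 or 2.47-fold (1.47-fold with normexp). Lefty1, a secreted protein of the TGF-beta family, had 209.3 ± 21.1 and 87.4 ± 9.26, a difference of -1.08 or 2.12-fold (1.78-fold with normexp). Lair1, an inhibitory receptor for collagen, had 3348 and 1616 by its brightest probe, a difference of -0.88, and its 3 probes were all higher on the CD4+ array.

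Smaller differences toward the CD4+ array were those of Pld4, an endosomal nuclease, at -0.51, the receptor phosphatase gene Ptprs at -0.46 and Atp1b1, a sodium pump subunit, at -0.33. Ly6d, a surface protein known in B cells too, had -0.22 and Pacsin1, an endocytic adaptor, -0.21, both within the probe-to-probe SD of 0.24. The other probes of Pacsin1 went the other way, at 0.28 and 0.03. Toward the CD8+ array lay Cdh1, which encodes E-cadherin, at 0.51 and Ugcg, a glucosylceramide synthase, at 0.30. Cdh1 was the only member with replicate spots, 10 of them, with signals of 83.5 ± 8.23 (SD over spots) on the CD4+ array against 105.1 ± 9.19 on the CD8+ array, and the SD of its difference over the spots was 0.15. Of the 15 plasmacytoid genes measured on both arrays, 13 had a negative difference and the median was -0.51, against 0.02 for all genes. Among the 13, Spib, Ly6d and Pacsin1 were negative by less than the probe-to-probe SD. The members also known in B cells (Cd24a, Ly6d, Bcl11a and Spib) were all within 2-fold. Leaving these 4 genes out therefore cannot change the counts of 8 and 4, and the part of B cell RNA in those counts was not tested.

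The members were also divided by signal strength. Of the 30 genes, 13 had a mean level below the arrays' 75th percentile, and 5 of these were at least 2-fold higher on the CD4+ array against 3 on the CD8+ array. Of all genes as dim as this, 6.87% and 2.90% were. Of the 17 brighter members, 3 (Clec10a, Upb1 and Itgax) were higher on the CD4+ array against 1 (Naaa) on the CD8+ array, against 1.44% and 1.18% of all bright genes. These 4 kept at least 2.15-fold in all settings that measured them. Of the 8 dimmer ones, 4 (Cd207, Siglech, Ifi205 and Cd209a) kept at least 2.55-fold, while the lowest folds were 1.93 for Tcf4, 1.78 for Lefty1, 1.64 for Hepacam2 and 1.47 for Hs3st1.

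**Figure D3:**
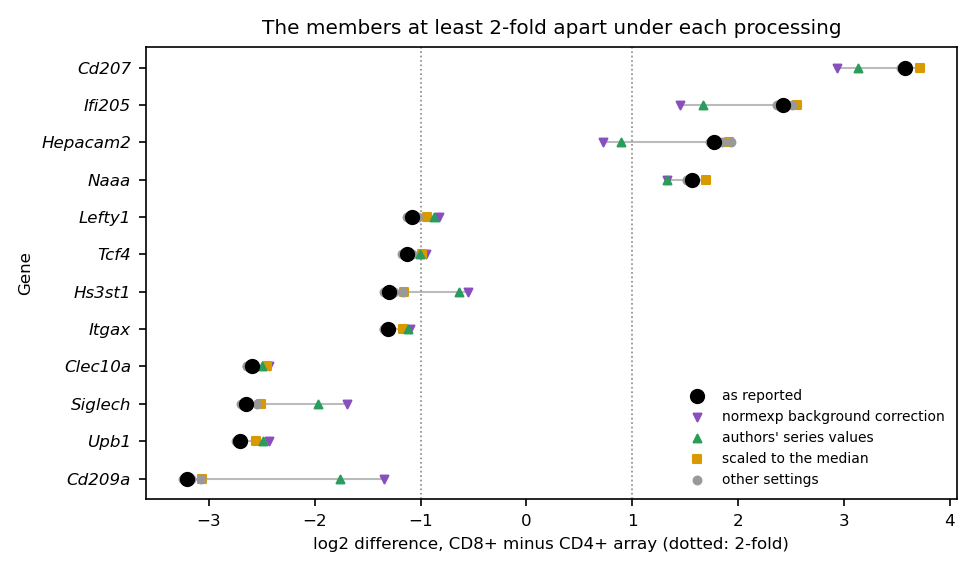
Log2 difference between the CD8+ and CD4+ arrays of the 12 members at least 2-fold apart, as reported (black) and under each alternative processing (smaller symbols, with grey lines spanning them). The sign was the same in every setting, while normexp brought Hepacam2 to 0.72, Cd209a to -1.35 and Hs3st1 to -0.55.

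Genes of the same cells that are not members were read from further lists, whose genes were in part known from earlier results of these arrays. Of the 12 further cDC1 genes, 8 had named probes, 6 of them measured on both arrays and all 6 higher on the CD8+ array, with a median of 1.65. Cxxc5, a zinc finger protein gene, had 168.3 on the CD4+ array against 1078 on the CD8+ array, 7.24-fold higher. Fzd1, a Wnt receptor, had 16.5 and 69.8, 4.79-fold higher (1.85-fold with normexp), and Snx22, a sorting nexin, 99.7 and 190.7, 2.16-fold higher (1.72-fold with normexp). Itgae, the integrin chain CD103 that CD8+ T cells carry themselves, had 1651 and 6671, 4.57-fold higher, and without it the median was 1.11. Tlr3, a receptor for double-stranded RNA, was detected in the CD8+ sample alone, with a signal of 47.9, and was at least 4.19-fold higher (1.70-fold with normexp). Gpr141b was also detected in the CD8+ sample alone, with a signal of 76.8.

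The further cDC2 genes had a median of -0.60 over 8 genes measured on both arrays, of 10 with named probes, and 3 were at least 2-fold higher on the CD4+ array. One of these was Cd4 itself, the protein that names the sorted cells. The others were Ccr2, a chemokine receptor of monocytes and effector T cells as well, with 673.6 and 93.0, 6.41-fold higher (3.72-fold with normexp), and Itgam, the integrin chain CD11b, with 67.6 and 19.2, 3.11-fold higher (1.49-fold with normexp).

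The further plasmacytoid genes were split, with 3 of 12 at least 2-fold higher on the CD4+ array, 2 on the CD8+ array and a median of -0.15. Cox6a2, a cytochrome oxidase subunit, had 1571 and 207.9, 6.69-fold higher on the CD4+ array. The kallikrein genes Klk1b27 (513.5 and 63.4, 7.17-fold, or 4.19-fold with normexp) and Klk1 (470.6 and 71.7, 5.81-fold, or 3.53-fold) went the same way, but kallikrein genes are so alike that their probes may not measure separate genes. The 2 on the other side were Ccr9, with 698.1 and 3880, 6.28-fold higher, and Ly6c2, with 13907 and 41704, 3.39-fold higher, genes that CD8+ T cells can also express. Without these 2 genes the median was -0.43. Bst2, a surface protein of plasmacytoid cells and of interferon-treated cells, had a difference of -0.24, and Tlr7 and Tlr9, sensors of nucleic acid, had -0.63 and 0.00.

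Dendritic cell transcription factors had a median of -0.25, against 0.02 for all genes, with 8 of 11 higher on the CD4+ array. Among the 8, Irf8 and Ikzf1 (-0.11) differed by less than the probe-to-probe SD of 0.24. Of 11 transcription factors, 2 were at least 2-fold higher on the CD4+ array, Irf4 (123.1 and 35.2, 3.09-fold, or 1.87-fold with normexp) and Nfil3 (567.3 and 211.7, 2.37-fold), both also known in T cells. Klf4 (1.75-fold) lay on the same side, and Irf8, which cDC1 and plasmacytoid cells need, had -0.17. Of 11 MHC class II and costimulation genes measured on both arrays none was 2-fold apart, with a median of -0.16. Among them H2-Aa had -0.17, H2-Ab1 -0.11 and Cd74, the invariant chain, -0.16, while H2-Oa, an inhibitor of peptide loading, had 0.84, Cd86, a costimulatory ligand, 0.70 and Ciita, which switches on class II genes, -0.44. Cd80 was detected above background in the CD4+ sample alone and was at least 1.94-fold higher there by the bound, but 1.01-fold with normexp.

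**Figure D4:**
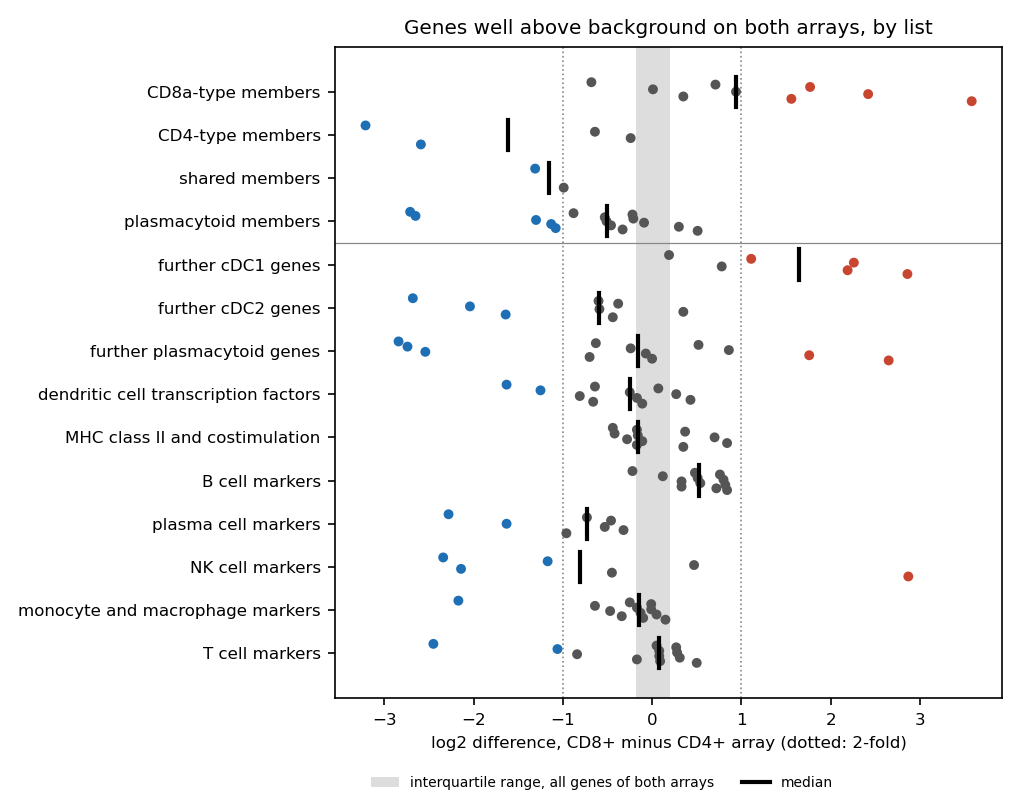
Log2 difference between the CD8+ and CD4+ arrays for each gene well above background on both arrays (points; red and blue are at least 2-fold higher on the CD8+ and CD4+ arrays), by list, with list medians as black bars and the interquartile range of all genes (-0.18 to 0.20) in grey. The CD8a-type members have a median of 0.94 and the further cDC1 genes of 1.65, while the CD4-type and shared members lie on the other side.

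Markers of other cells in the spleen also differed between the arrays, and their part in the values above was not tested. B cell markers had a summed level of 25.1 on the CD4+ and 37.4 on the CD8+ array, and 11 of 12 were higher on the CD8+ array (Cd79b by 1.79-fold), with none 2-fold apart. Plasma cell markers had summed levels of 8.04 and 5.19, and all 7 measured on both arrays were higher on the CD4+ array, with a median of -0.73. Sdc1, dim on both arrays, turned to 0.12 with normexp. Prdm1 was the furthest apart, at 4.87-fold (2.75-fold with normexp), while Jchain was 1.44-fold and Mzb1 1.24-fold higher. NK cell markers had summed levels of 68.7 and 108.2 but a median of -0.81 over 6 genes. Higher on the CD4+ array were Klrb1c (5.07-fold, or 3.14-fold with normexp), Ncr1 (4.40-fold, or 1.62-fold with normexp), Tyrobp and Fcer1g. Klrd1 (7.30-fold) and Il2rb (1.39-fold) were higher on the CD8+ array, and Klre1 was not well above background on either. Il2rb and Klrd1 made up most of the sum on both arrays. Monocyte and macrophage markers had summed levels of 104.1 and 90.3 and a median of -0.15 over 12 genes. Of these, Lyz2, the lysozyme gene of myeloid cells, was 4.49-fold higher on the CD4+ array, while Csf1r, the macrophage growth factor receptor, had a difference of 0.05 and C1qa -0.01. The members themselves had summed levels of 29.9 and 57.5 for the CD8a-type, 22.4 and 12.6 for the CD4-type, 4.57 and 1.87 for the shared and 52.9 and 40.8 for the plasmacytoid genes. The bright genes Cst3 and Sirpa, both under 2-fold apart, made up most of the CD8a-type and the CD4-type sum, respectively, on both arrays.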

How the data were processed

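Gene expression was measured on 2 one-colour arrays, 1 per cell type, grouped by the titles in the labels. Per the file headers, Feature Extraction 10.1.1.1 made the intensity values and the array design is on build mm9. The submitters' processing notes give version 9.1 of that software. The deposited processed intensity is Cy3 brightness from which the software had taken the background, unscaled between arrays, with a software error beside it. The authors' series table was compared with the scanner files: its intensity and the median pixel brightness coincide at 45018 of 45018 spots per array (medians 80 and 73), so it is linear, with no background subtraction or centring.

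The main value was log2 of the processed signal minus the array's 75th percentile over non-control spots, CD8+ minus CD4+. Spots flagged as outliers on either array (99 and 92) were left out, and replicate spots were averaged as log2 values. No member probe was saturated. Probes were named by transcript accession in a RefSeq table (GRCm38.p6), used for names, and promoter windows came from a RefSeq table of that build. A gene took its brightest probe, by mean level, among probes well above background on both arrays where it had any. A gene dim on 1 array got a bound against the lowest level that passed there, or its own if higher. Genes named were all members and, of each further list, the 3 largest differences, besides others chosen after their values were seen. The members and lists were chosen with earlier results of these data known.

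Alternatives were normexp on median signals (offset 50), other scalings, quantile and loess (span 0.3) normalization, the series values, filters on dim (minimum 200) and saturated spots, outlier spots kept, the mean over probes and a 4-fold threshold. The tools were Python 3.11.15, pandas 2.3.3, limma 3.58.1 and R 4.3.3, and the computation was tested on simulated data. The number of arrays limits the precision. One gene that the naming rule covers is not reported here.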

Additional observations from a re-analysis of the deposited data

How the results depend on the processing

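Of the 126 values that the 12 members at least 2-fold apart took under the alternatives, all 126 kept their sign and 117 stayed at least 2-fold. Those under 2-fold were Hepacam2 and Hs3st1 with normexp or the series values, Tcf4 with normexp or median scaling, and Lefty1 with these 3. The members at least 2-fold higher on the CD4+ array numbered 8, and 5 with normexp, 4 with brighter probes alone (20 genes) and 4 at a 4-fold threshold. On the CD8+ array they numbered 4, and 2 with brighter probes and 2 at 4-fold. Over all genes the counts of 458 and 232 were 219 and 122 after normexp, 268 and 140 from the series table, 1281 and 617 with no filter on dim probes, 208 and 127 with brighter probes and 111 and 50 at 4-fold. The median of the CD8a-type genes was 1.56 with the mean over probes, which takes in the dimmer Xcr1 probe, in place of 0.94. That of the CD4-type genes was -0.98 after normexp, -1.18 from the series table and -0.95 with no filter, which adds Ccl17, in place of -1.62. Normexp adds an offset of 50 to every spot, which by construction shrinks the folds of dim genes such as Cd209a. No paired analysis was possible because each group has 1 array and the labels give no replicate numbers. Signals under about 14.7 on the CD8+ array and 12.4 on the CD4+ array were not measured above background.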

Other observations

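Genes of dendritic cell maturation and migration had a median log2 difference of 0.05 over 8 genes measured on both arrays. Socs2, an inhibitor of cytokine signals that T cells also express, had signals of 421.8 and 48.9, 7.63-fold higher on the CD4+ array (3.85-fold with normexp). Fscn1, an actin-bundling protein of mature dendritic cells, had 67.8 and 104.0, 1.73-fold higher on the CD8+ array, and Ccl5 was 1.47-fold higher there. Ccl22 was not well above background on either array.

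Neutrophil markers had a median of 0.17 over 6 genes, with none 2-fold apart and S100a9 1.21-fold higher on the CD8+ array. Erythroid and platelet markers had a median of 0.59 over 5 genes. The platelet genes Pf4 (1.69-fold), Gp9 (1.53-fold) and Ppbp (1.51-fold) were higher on the CD8+ array. Itga2b was above background there alone, at least 2.32-fold higher by the bound but 1.27-fold with normexp. The erythroid genes Hba-a1 and Alas2 had differences of -0.30 and 0.03, and the summed level of the list was 5.75 on the CD4+ and 5.07 on the CD8+ array.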
